A study of Mus musculus with 12 samples.

Results

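The matrix metalloproteinases (MMPs) and their tissue inhibitors (TIMPs) were followed through all 4 groups of a mouse skin inflammation experiment. The 10 genes, namely Mmp2, Mmp3, Mmp8, Mmp9, Mmp10, Mmp12, Mmp13, Mmp14, Timp1 and Timp3, were chosen by name and found by their Ensembl identifiers among the 52636 genes of the count table. All 10 were among the 17993 genes that passed the filter on low counts. The choice was made with earlier results of these data known. By the rule given below, LL37-injected skin had 6 of the 10 called higher than control skin (8.73% of all tested genes) and 1 lower (10.8%). Against LL37-injected skin with rapamycin, it had 4 of the 10 called higher (4.33% of all tested genes) and 2 lower (5.8%). Those 4 include Mmp13 and Timp1, whose calls were lost in several fits that left out 1 library. Mmp10 and Mmp8 could be tested only because they were high in LL37-injected skin, Mmp8 with or without rapamycin.

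RNA was sequenced from whole back skin of BALB/c mice, injected at 8 weeks of age, with 3 independent biological samples and 1 library per sample in each group. LL37, the active peptide of human cathelicidin, or its control vehicle was injected into the dermis over 2 days in volumes of 40 μl. Rapamycin (RAPA) blocks mTORC1, a kinase complex that couples nutrient and growth signals to protein synthesis. The groups were control mice, control mice given RAPA (control+RAPA), LL37-injected mice (LL37) and LL37-injected mice given RAPA (LL37+RAPA). Per the study's methods, BALB/c mice were female, and RAPA was given to this strain by intraperitoneal injection at 4 mg/kg per day, although the route is not named for the sequenced mice. The control and LL37 groups received its vehicle instead, and no group carried a genetic change. LL37 is a human peptide given by needle, so the model is acute and local, and libraries of whole skin mix all cell types at the injected site.

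MMPs are zinc-dependent endopeptidases that are made as inactive proenzymes and, once their prodomain is removed, cleave collagens, elastin, laminins and other matrix proteins as well as cytokines and receptors. TIMPs bind the active site of MMPs and hold them inactive, and TIMP3 stays bound to the matrix and also blocks several ADAM proteases. In skin, MMPs are known from wound repair, ultraviolet damage and inflammation, where keratinocytes, fibroblasts, macrophages and neutrophils each make their own set.

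Depth was between 15734559 and 23271784 counts per library, and 3 counts equalled 0.123 to 0.184 CPM, which are counts per 1e6 counts scaled by edgeR's TMM method. Keratinocyte markers took 1.94 to 4.56% of counts in every library. Skeletal muscle markers took 3.54 to 6.27% in the 6 libraries without LL37, 0.328 to 0.74% in LL37+RAPA and 0.0039 to 0.0881% in LL37. LL37 replicate 3 stood apart, with neutrophil markers at 0.0275% of counts, against 0.183 and 0.261% in the other 2 LL37 libraries, and with the highest muscle share of its group. It was the lowest LL37 library for 7 of the 10 genes (Mmp2, Mmp3, Mmp8, Mmp9, Mmp13, Mmp14 and Timp1), and the fold changes of LL37 skin are also given without it. In whole skin, fewer cells of a type and less RNA per cell cannot be told apart. Each group is compared as 3 samples. The edgeR tests estimate the spread within groups from all 12 libraries together, so a p-value also depends on the groups outside its comparison.

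Several of the genes lie side by side. Mmp13, Mmp12, Mmp3, Mmp10 and Mmp8 belong to a cluster of 10 Mmp genes that spans 427 kb of chromosome 9 on GRCm38 (GENCODE M21), in that order, with Mmp1b, Mmp1a, Mmp27, Mmp20 and Mmp7 among or after them. Promoter windows of RefSeq (GRCm38.p6), from 250 bases before to 50 bases after a gene start, were at hand for 8 of the 10 genes, and there was no window for Mmp2 or Mmp9. Each window was searched on both strands for TGAGTCA (reverse complement TGACTCA), the core site of the transcription factor AP-1, and for TATAAA (reverse complement TTTATA), the TATA box. No match of one motif overlapped a match of the other in the stretches shown. Over 32851 windows, 5.2% held the AP-1 site and 13.6% held the TATA box. The 80 bases before the starts of the 5 cluster genes are shown because these genes went different ways in the same tissue. Capitals mark the AP-1 site and the TATA box.
Mmp3, chr9:7445742-7445821 (+): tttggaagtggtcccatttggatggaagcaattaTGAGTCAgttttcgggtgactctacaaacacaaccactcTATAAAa
Mmp10, chr9:7502262-7502341 (+): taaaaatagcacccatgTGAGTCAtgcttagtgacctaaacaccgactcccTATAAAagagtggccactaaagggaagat
Mmp13, chr9:7272434-7272513 (+): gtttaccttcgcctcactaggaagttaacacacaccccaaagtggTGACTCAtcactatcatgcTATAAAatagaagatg
Mmp12, chr9:7344317-7344396 (+): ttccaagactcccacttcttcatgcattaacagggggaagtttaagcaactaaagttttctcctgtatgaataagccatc
Mmp12 (downstream start), chr9:7347294-7347373 (+): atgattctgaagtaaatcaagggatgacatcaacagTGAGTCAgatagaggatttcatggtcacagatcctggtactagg
Mmp8, chr9:7558349-7558428 (+): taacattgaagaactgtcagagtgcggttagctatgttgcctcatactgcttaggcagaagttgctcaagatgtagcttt

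The AP-1 site began 46 bases before the start of Mmp3, 63 bases before that of Mmp10, 35 bases before that of Mmp13 and 44 bases before the downstream start of Mmp12. No AP-1 site was found in the windows of Mmp8, Mmp14, Timp1, Timp3 or the upstream start of Mmp12. The TATA box stood 7 bases before the start in Mmp3, 29 in Mmp10 and 16 in Mmp13. In Mmp12, the window of the downstream start held a TATA box 4 bases after that start, past the bases shown, and that of the upstream start held none. In Mmp8, a TATA box on the other strand began 3 bases before the start and ran across it, so it is not in capitals. A match is a match of letters only, and no match says only that these letters are not in the window.

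The first question was how LL37 changed these genes. In LL37 against control skin, 6 of 10 were called higher, where 8.73% of all tested genes were called higher, and 1 was called lower, where 10.8% were. A call needed a log2 fold change past 1 in either direction together with a Benjamini-Hochberg adjusted p under 0.05, from edgeR's quasi-likelihood test over all 17993 genes. Mmp10 passed the filter on low counts only through the LL37 libraries, so it could be tested only because it was high there. Mmp8 passed it only through the LL37 and LL37+RAPA libraries, with at most 16 counts in any library without LL37. The median log2 fold change was 2.95 over the 10 genes and 0.00 over all tested genes. The 10 genes were chosen with earlier results of these data known, so these counts and medians are no test of the family. Of the 10 other MMP genes tested, 2 were called higher and 0 lower, with a median of 0.11. Of the 2 other TIMP genes, 0 were called higher and 1 lower. The libraries of both groups did not overlap for any of the 7 called genes, as they did not for 49.7% of all tested genes. The second question was how RAPA changed LL37 skin. In LL37 against LL37+RAPA, 4 of 10 were called higher in LL37 (4.33% of all tested genes) and 2 lower (5.8%), with a median of 0.26 over the 10 genes and 0.00 over all. Both comparisons use the same LL37 libraries, so their values are not independent.

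**Figure D1:**
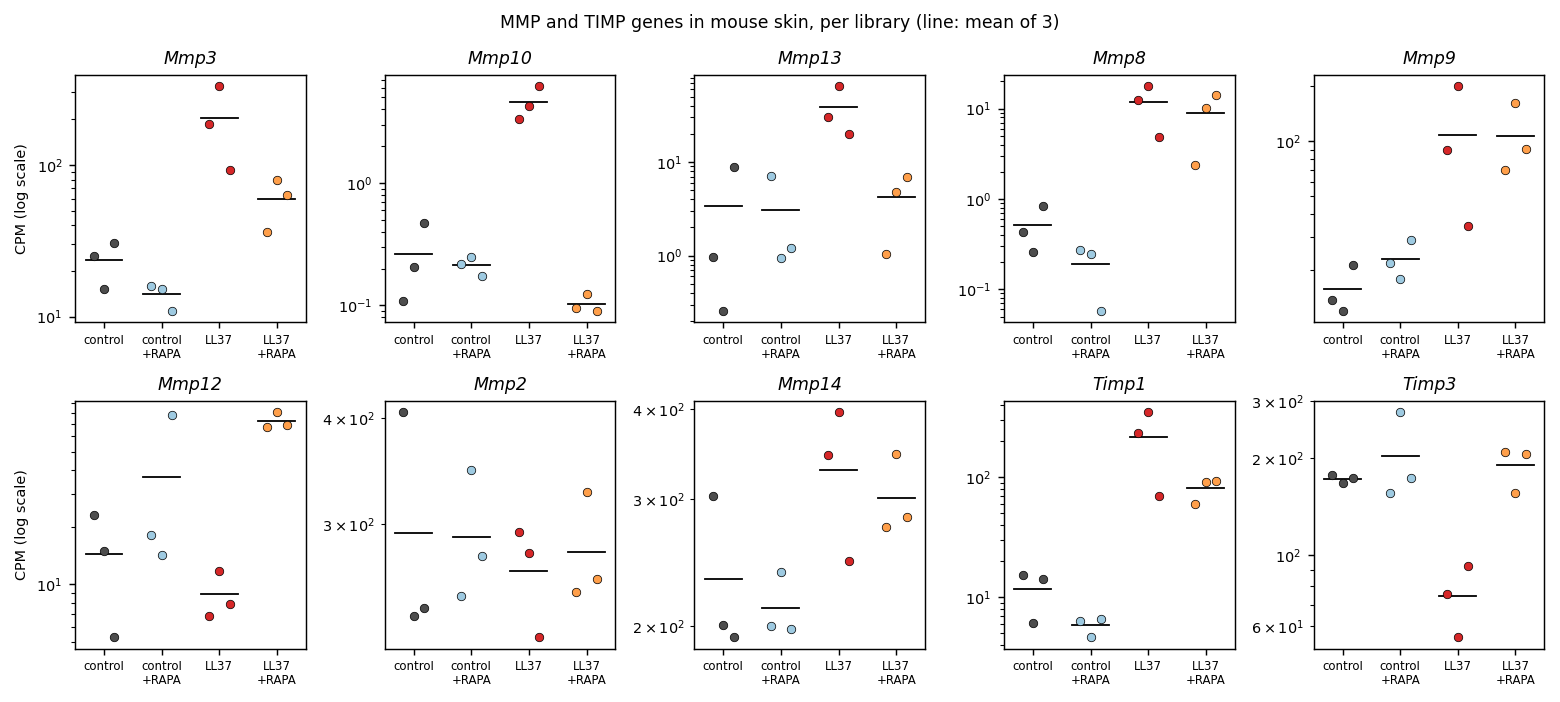
CPM (log scale) of the 10 genes in each of the 12 libraries, with a bar at the mean of 3. Mmp3, Mmp10, Mmp13, Mmp8, Mmp9 and Timp1 sat higher in every LL37 library than in every control library, Timp3 sat lower, and Mmp12 was at 67 to 80.6 CPM in LL37+RAPA against 6.86 to 11.8 in LL37.

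The stromelysins Mmp3 and Mmp10 cleave proteoglycans, laminin and fibronectin and activate other MMPs. Mmp3 (ENSMUSG00000043613) lies on chromosome 9 from 7445822 to 7455975 on the plus strand. Its level was 25.1, 15.2 and 30.6 CPM in control libraries 1 to 3 and 187, 332 and 92.7 in LL37. In LL37+RAPA it was 35.9, 79.3 and 63.5 CPM, and in control+RAPA 16, 15.2 and 10.9. Every LL37 library lay above every LL37+RAPA library, and every LL37+RAPA library lay above every library without LL37. Mmp3 rose from 23.6 ± 7.8 CPM (SD, n = 3) in control to 204 ± 120 in LL37, a log2 fold change of 3.11 (SE 0.45, adjusted p = 0.000275, edgeR). It was also higher in LL37 than in LL37+RAPA (59.5 ± 21.9 CPM), with a log2 difference of 1.77 (SE 0.42, adjusted p = 0.0128, edgeR). Without LL37 replicate 3, these values were 3.49 and 2.12, and the second call was lost without LL37+RAPA replicate 1, where the difference was 1.51.

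Mmp10 (ENSMUSG00000047562, chromosome 9 from 7502352 to 7510240, plus strand) had the lowest level of the 10 genes per length in control (0.152 ± 0.11 CPM per kb of exons; SD, n = 3) and in LL37+RAPA. Without length scaling it was at 0.108, 0.205 and 0.474 CPM in control, 0.217, 0.247 and 0.173 in control+RAPA, 3.32, 4.23 and 6.22 in LL37 and 0.0949, 0.123 and 0.0902 in LL37+RAPA. The LL37 libraries stood far above all others, and LL37 replicate 3 was the highest of them. Mmp10 rose in LL37 by 4.10 on the log2 scale (SE 0.42, adjusted p = 2.75e-05, edgeR). The 3 LL37+RAPA libraries held 7 counts in all and at most 3 each, against 262 counts in LL37. The ratio of LL37 to LL37+RAPA was 45.3, with a 95% exact interval from 21.7 to 114 that covers counting error only. The fitted log2 difference was 5.39 (SE 0.47, adjusted p = 0.000332, edgeR), and its size depends on the prior count. The difference of Mmp10 between LL37+RAPA and control did not pass the test (log2 fold change -1.30, SE 0.60, adjusted p = 0.186, edgeR). The effect of RAPA on Mmp10 differed between skin with and without LL37, with an interaction of -5.10 on the log2 scale (SE 0.77, adjusted p = 0.0193, edgeR). This interaction could be tested only because Mmp10 was high in LL37, and the few counts without LL37 could hardly show a fall with RAPA. Mmp10 was 3.84 above control and 5.11 above LL37+RAPA without LL37 replicate 3. The call of the interaction was lost without LL37+RAPA replicate 1 or control+RAPA replicate 3, at -5.05 and -5.20.

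Collagenases cut fibrillar collagen. Mmp13 (ENSMUSG00000050578, chromosome 9 from 7272514 to 7283331, plus strand), the main collagenase of rodents, was at 0.971, 0.256 and 8.96 CPM in control and 30.1, 65.4 and 19.9 in LL37. It was at 1.04, 4.83 and 6.94 CPM in LL37+RAPA and 7.05, 0.938 and 1.21 in control+RAPA. All LL37 libraries were above all others, and the 3 other groups overlapped over a wide range. Mmp13 rose in LL37 against control by 3.50 on the log2 scale (SE 1.06, adjusted p = 0.0199, edgeR) and stood 3.16 above LL37+RAPA (SE 1.03, adjusted p = 0.0447, edgeR). These calls rest on few libraries. The first was lost without control replicate 1, control replicate 2 or LL37 replicate 2, and without control replicate 3 the fold change was 5.95. Mmp13 was 3.84 above control and 3.47 above LL37+RAPA without LL37 replicate 3. The second was lost in 6 of 12 fits that left out 1 library (LL37 replicate 1 or 2, any LL37+RAPA replicate or control+RAPA replicate 3), with differences from 2.55 to 3.69.

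Mmp8 (ENSMUSG00000005800, chromosome 9 from 7558456 to 7568485, plus strand), known as neutrophil collagenase, was at 0.431, 0.256 and 0.843 CPM in control, 0.271, 0.247 and 0.0576 in control+RAPA, 12.4, 17.9 and 4.9 in LL37 and 2.37, 10.2 and 14 in LL37+RAPA. Libraries with and without LL37 did not overlap, while LL37 and LL37+RAPA did. Mmp8 passed the filter on low counts only through the libraries with LL37, so it could be tested only because it was high there. It rose in LL37 by 4.50 on the log2 scale (SE 0.74, adjusted p = 0.00061, edgeR). In LL37+RAPA it was still 4.10 above control (SE 0.74, adjusted p = 0.00308, edgeR), and the difference between LL37 and LL37+RAPA was 0.40 (SE 0.57, adjusted p = 0.64, edgeR). Without LL37 replicate 3, Mmp8 was 4.91 above control, and its difference from LL37+RAPA was 0.77 (adjusted p = 0.285, edgeR).

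The gelatinases Mmp2 and Mmp9 cleave denatured collagen and basement membrane collagen. Mmp9 (ENSMUSG00000017737, chromosome 2 from 164940780 to 164955850, plus strand), which neutrophils and keratinocytes make in inflamed skin, was at 13.7, 11.9 and 21.2 CPM in control and 21.6, 17.8 and 28.8 in control+RAPA. It was at 89.2, 200 and 34.7 CPM in LL37 and 69.9, 161 and 90.9 in LL37+RAPA. The means with LL37 were 108 ± 84.4 CPM (SD, n = 3) without RAPA and 107 ± 47.9 with it, and LL37 replicate 3 was the lowest of the 6. Mmp9 rose in LL37 by 2.79 (SE 0.55, adjusted p = 0.00176, edgeR) and in LL37+RAPA by 2.78 (SE 0.54, adjusted p = 0.00533, edgeR) on the log2 scale. LL37 and LL37+RAPA differed by 0.01 (SE 0.50, adjusted p = 0.996, edgeR), and without LL37 replicate 3 by 0.43, where the rise over control was 3.24.

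Mmp2 (ENSMUSG00000031740, chromosome 8 from 92827291 to 92853420, plus strand) is a gelatinase of fibroblasts that needs Mmp14 for its activation at the cell surface. It was at 407, 233 and 238 CPM in control, 246, 347 and 275 in control+RAPA, 293, 277 and 220 in LL37 and 249, 327 and 258 in LL37+RAPA. All 4 groups overlapped. Its log2 fold change was -0.15 in LL37 against control (SE 0.22, adjusted p = 0.61, edgeR) and between -0.08 and -0.01 in the other pairwise comparisons. Without LL37 replicate 3 it was -0.01 against control and 0.03 against LL37+RAPA. Mmp14 (ENSMUSG00000000957, chromosome 14 from 54431612 to 54445364, plus strand) encodes a membrane-bound collagenase, MT1-MMP. It was at 303, 201 and 193 CPM in control, 200, 238 and 198 in control+RAPA, 345, 396 and 246 in LL37 and 274, 346 and 283 in LL37+RAPA. LL37 and control libraries overlapped through control replicate 1 and LL37 replicate 3. The log2 fold change of 0.50 in LL37 (SE 0.20, adjusted p = 0.0651, edgeR) did not pass the test. Without LL37 replicate 3 it was 0.70 (adjusted p = 0.00839, edgeR), below the limit of 1 for a call.

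Mmp12 (ENSMUSG00000049723, chromosome 9 from 7344381 to 7369499, plus strand), the elastase of macrophages, was the 1 gene of the 10 with its highest mean in LL37+RAPA. It was at 23.1, 14.9 and 5.27 CPM in control, 6.86, 11.8 and 7.91 in LL37, 67, 80.6 and 69.3 in LL37+RAPA and 18.3, 14.2 and 78.1 in control+RAPA. The LL37+RAPA libraries were high and close together, and 1 of the 3 control+RAPA libraries, replicate 3, stood as high as they did. Against control+RAPA, LL37+RAPA was 0.98 higher on the log2 scale (SE 0.59, adjusted p = 0.297, edgeR), and 2.17 higher without control+RAPA replicate 3 (adjusted p = 0.0129, edgeR). In control+RAPA against control, the log2 fold change was 1.35 (adjusted p = 0.573, edgeR). Mmp12 shares 157 exonic bases with Mmp1b on the other strand, but Mmp1b held 84 counts over all libraries against 8204 for Mmp12. Mmp12 was lower in LL37 than in LL37+RAPA by a log2 difference of -3.04 (SE 0.64, adjusted p = 0.0075, edgeR), and by -2.96 without LL37 replicate 3. Of 10 macrophage markers, 9 had log2 differences above 0 in this comparison, the opposite sign to Mmp12, and 2 of them were called, Ms4a7 (3.11) and Adgre1 (1.42). Lyz2, at 742 ± 214 CPM (SD, n = 3) in LL37 and 1240 ± 407 in LL37+RAPA, was the 1 marker with a negative difference, -0.74 (adjusted p = 0.0686, edgeR). The part of macrophages in the level of Mmp12 was not tested.

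The inhibitors moved in opposite directions. Timp1 (ENSMUSG00000001131, chromosome X from 20870166 to 20874735, plus strand), the inducible inhibitor of inflamed tissue, was at 15.2, 6.15 and 14.1 CPM in control and 6.34, 4.64 and 6.56 in control+RAPA. It was at 234, 350 and 69.8 CPM in LL37 and 60.4, 90.8 and 92.7 in LL37+RAPA. All libraries with LL37 were above all without it, and LL37 replicate 3 fell within the range of LL37+RAPA. Timp1 rose in LL37 by 4.21 on the log2 scale (SE 0.53, adjusted p = 0.000112, edgeR) and in LL37+RAPA by 2.78 (SE 0.50, adjusted p = 0.00324, edgeR). Timp1 was called higher in LL37 than in LL37+RAPA (1.42, SE 0.47, adjusted p = 0.0458, edgeR), but the call held in 2 of 12 fits that left out 1 library, those without control replicate 2 or LL37 replicate 3, with differences from 0.91 to 1.84. Without LL37 replicate 3 it was 1.84 (adjusted p = 0.00087, edgeR), and the rise over control was 4.66. Timp1 lies within Syn1 on the other strand and shares 0 exonic bases with it.

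Timp3 (ENSMUSG00000020044, chromosome 10 from 86300372 to 86349506, plus strand), the inhibitor held in the matrix, was at 177, 167 and 174 CPM in control and 156, 278 and 173 in control+RAPA. It was at 75.5, 55.5 and 92.3 CPM in LL37 and 209, 156 and 206 in LL37+RAPA. The LL37 libraries were the 3 lowest of all 12, and the other groups overlapped. Timp3 fell by 1.21 on the log2 scale in LL37 against control (SE 0.23, adjusted p = 0.0013, edgeR) and was lower in LL37 than in LL37+RAPA, with a log2 difference of -1.35 (SE 0.23, adjusted p = 0.00287, edgeR). These values were -1.37 and -1.54 without LL37 replicate 3. LL37+RAPA and control differed by 0.14 (SE 0.22, adjusted p = 0.752, edgeR). The interaction was 1.13 (SE 0.32, adjusted p = 0.0699, edgeR) and passed the test in DESeq2 (1.13, adjusted p = 0.0124). In edgeR it also passed without LL37 replicate 3 (1.31) or control+RAPA replicate 2 (1.43). Timp3 shares 1733 exonic bases with Syn3 on the other strand, which held 232 counts over all libraries.

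**Figure D2:**
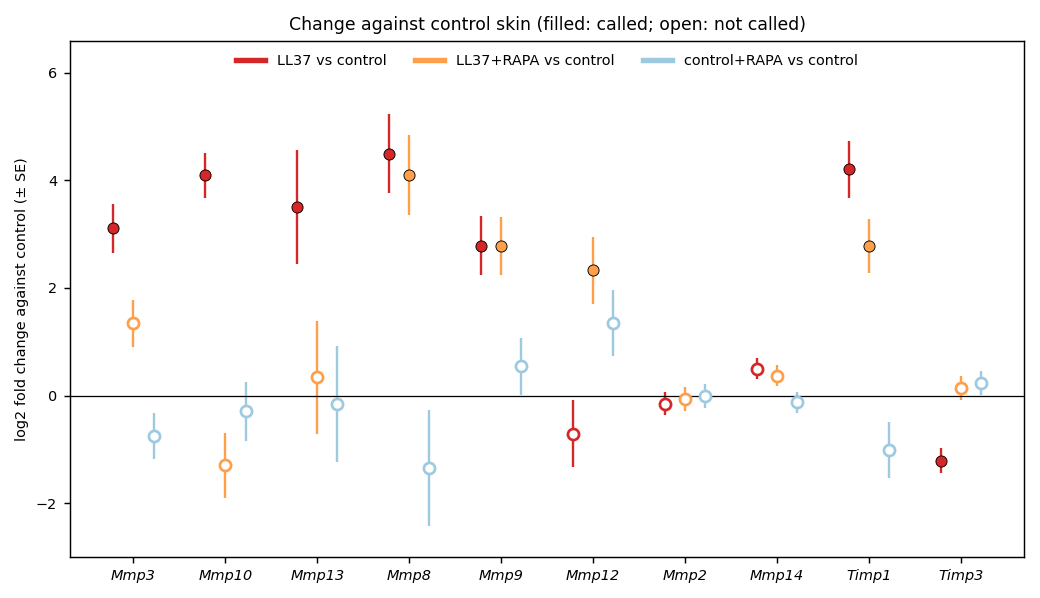
Log2 fold change against control skin, with standard errors, for LL37, LL37+RAPA and control+RAPA; filled points were called and open points were not. Mmp8, Mmp9 and Timp1 were called in LL37 and in LL37+RAPA, Mmp12 was called in LL37+RAPA (2.33) and not in LL37, and no point of control+RAPA was filled.

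Against control skin, LL37+RAPA had 4 of the 10 genes called higher (Mmp8, Mmp9, Mmp12 and Timp1), where 2.15% of all tested genes were, and 0 lower, where 4.35% were. The median was 0.85 over the 10 genes and 0.00 over all. Mmp3 missed the threshold at 1.34 (SE 0.43, adjusted p = 0.0593, edgeR), although its libraries did not overlap with those of control, and was called without LL37 replicate 2 (1.37), LL37 replicate 3 (1.37) or LL37+RAPA replicate 1 (1.60). Mmp13 was at 0.34 (SE 1.05, adjusted p = 0.881, edgeR). The call of Mmp12 in this comparison was lost without control replicate 2, control replicate 3, LL37+RAPA replicate 2 or LL37+RAPA replicate 3, with fold changes from 1.92 to 2.85. Against control+RAPA, which carries the same drug, LL37+RAPA again had 4 of 10 called higher (4.07% of all tested genes) and 0 lower (4.32%). These were Mmp3 (2.08, SE 0.44, adjusted p = 0.00673, edgeR), Mmp8 (5.46, SE 0.84, adjusted p = 0.00108, edgeR), Mmp9 (2.24, SE 0.53, adjusted p = 0.0125, edgeR) and Timp1 (3.80, SE 0.54, adjusted p = 0.000618, edgeR). In both comparisons, Mmp8 could be tested only because it was high in skin with LL37. The call of Mmp9 was lost without LL37+RAPA replicate 2 (1.82), control+RAPA replicate 1 (2.22) or control+RAPA replicate 2 (2.09).

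RAPA alone was compared in control skin. edgeR called 0 of the 10 genes in control+RAPA against control, as it called 0% of all tested genes, and DESeq2 called 0 of them. At an unadjusted p under 0.05, edgeR had 1 of 10, Mmp12. Fold changes ran from -1.35 (Mmp8, SE 1.08) to 1.35 (Mmp12, SE 0.61) on the log2 scale. In the interaction, 1 of 10 was called lower (0.65% of all tested genes) and 0 higher (1.73%). The 1 was Mmp10, which passed the filter on low counts only through the LL37 libraries.

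Levels of different genes were compared as CPM per kb of exons. Mmp2 was the most abundant of the 8 MMPs in control skin (86.8 ± 29.4 CPM per kb; SD, n = 3), followed by Mmp14 (39 ± 10.3) and Mmp3 (13.1 ± 4.33), and the other 5 were at 4.41 or below. Shares were taken of the sum of these 8 MMPs. Other MMP genes were left out of that sum, such as Mmp15 (11.3 ± 0.95 CPM per kb in control) and Mmp19 (32.8 ± 16.3 in LL37+RAPA, where Mmp3 was at 33.1 ± 12.2). Together Mmp2 and Mmp14 gave 85.2 ± 5.52% of the sum of the 8 in control, 85.2 ± 4.2% in control+RAPA, 47.6 ± 11.9% in LL37 and 63.6 ± 5.98% in LL37+RAPA. Mmp3 gave 9.13 ± 3.34, 5.53 ± 1.36, 35.7 ± 7.51 and 15.3 ± 3.11% in the same order. In LL37 skin Mmp3 reached 113 ± 66.8 CPM per kb, against 78.1 ± 11.4 for Mmp2, a gap smaller than the spread of Mmp3. The sum of the 8 MMPs was 147 ± 40.6 CPM per kb in control, 142 ± 16 in control+RAPA, 300 ± 122 in LL37 and 212 ± 46.5 in LL37+RAPA. The lowest LL37 library (182) was below the highest control library (193), so these groups overlapped. Mmp2 and Mmp14 gave 58.6% in LL37 replicate 3, against 49.4 and 35% in the other 2 LL37 libraries.

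The makeup of the inhibitors differed between the groups. Timp2, which is constitutive in most tissues, led in control skin, and Timp1 gave 9.44 ± 2.83% of the CPM per kb of the 4 TIMP genes. Timp1 gave 5.15 ± 1.4% in control+RAPA, 72.6 ± 20.4% in LL37 and 47.6 ± 6.4% in LL37+RAPA. In LL37 replicate 3 it gave 49.2%, against 81.5 and 86.9% in replicates 1 and 2, and so lay within the range of LL37+RAPA (40.3 to 52.2%). The ratio of Timp1 to Timp3 in CPM per kb was 0.784, 0.337 and 0.743 in the control libraries and 28.4, 57.8 and 6.93 in LL37. It was 2.65, 5.33 and 4.12 in LL37+RAPA and 0.372, 0.153 and 0.349 in control+RAPA. The groups LL37 and LL37+RAPA did not overlap, and the lowest ratio of LL37 was that of replicate 3. Timp4 fell in LL37 by 3.14 on the log2 scale (SE 0.59, adjusted p = 0.00134, edgeR) from 17.9 ± 4.49 CPM (SD, n = 3) in control to 1.94 ± 1.97, and was at 20.9 ± 5.04 in LL37+RAPA. Of the 2 TIMP genes outside the 10, Timp4 was the 1 called, and Timp2 had a fold change of -0.80 (SE 0.16, adjusted p = 0.00198, edgeR), below the limit on size.

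**Figure D3:**
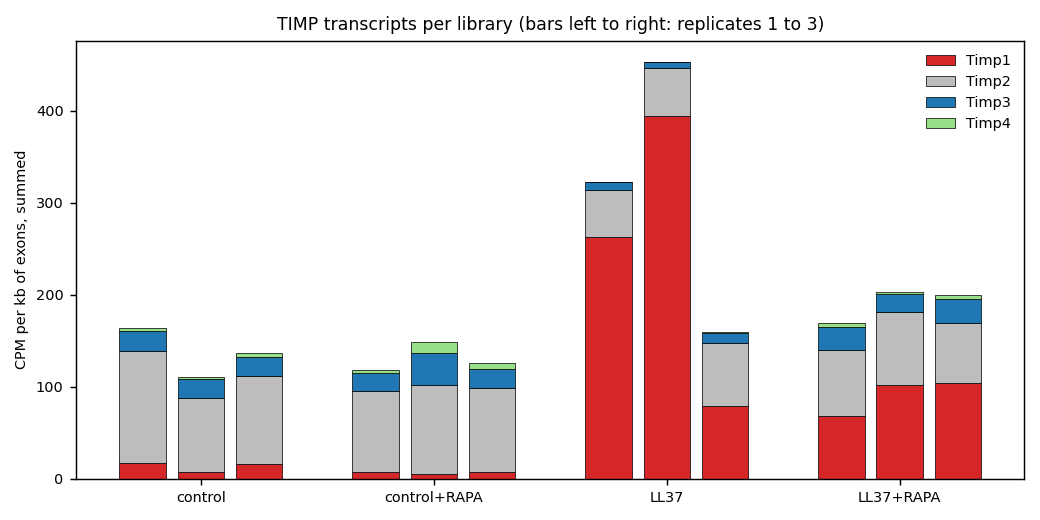
Stacked bars of Timp1, Timp2, Timp3 and Timp4 in CPM per kb of exons, 1 bar per library and replicates 1 to 3 from left to right in each group. Timp2 made up most of every bar without LL37, while Timp1 reached 263, 394 and 78.6 CPM per kb in LL37 and 68 to 104 in LL37+RAPA.

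Along the chromosome 9 cluster, neighbours did not share 1 pattern. Of its 10 genes, 7 had enough counts to be tested. In LL37 against control, Mmp13, Mmp1b, Mmp3, Mmp10 and Mmp8 were called higher, Mmp12 was at -0.71 (SE 0.62, adjusted p = 0.391, edgeR) and Mmp27 at -0.13 (SE 0.33, adjusted p = 0.771, edgeR). Mmp1b and Mmp10 passed the filter on low counts only through the LL37 libraries, and Mmp8 only through those of LL37 and LL37+RAPA. The calls of Mmp1b, Mmp10 and Mmp8 therefore add no support to a pattern along the cluster. Mmp1b, a collagenase-like gene on the other strand that overlaps the end of Mmp12, held 76 counts in LL37, 4 in LL37+RAPA, 4 in control and 0 in control+RAPA. The ratio of LL37 to LL37+RAPA for Mmp1b was 23, with a 95% exact interval from 8.62 to 86.6. Like those of Mmp3, Mmp10 and Mmp13, the window of Mmp1b held an AP-1 site, 93 bases before its start, and so did those of Mmp1a and Mmp7, which were not tested. The downstream window of Mmp12, which was not called in LL37 against control, held one as well. Mmp8 and Mmp27 held none.

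**Figure D4:**
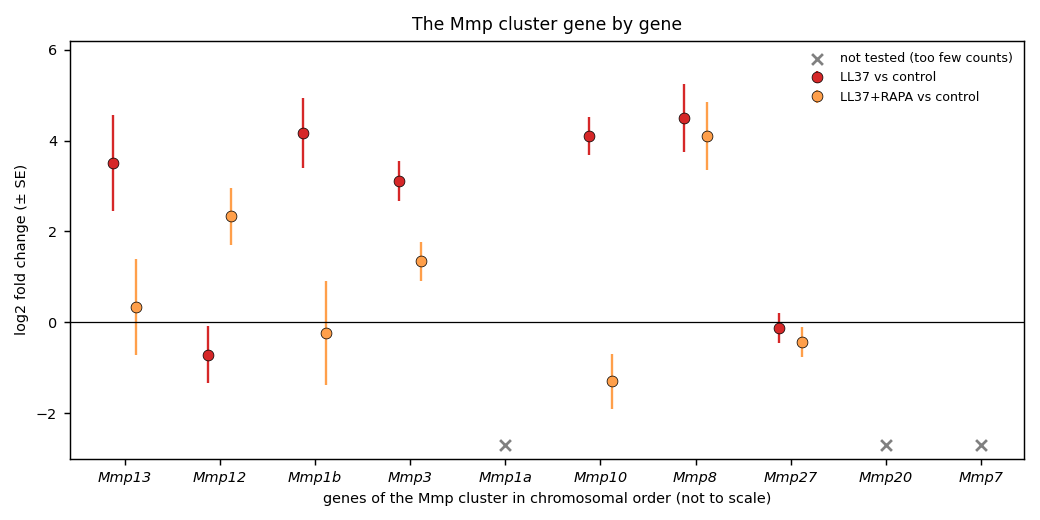
Log2 fold change against control, with standard errors, of the genes of the chromosome 9 cluster in chromosomal order; crosses mark genes with too few counts to be tested. In LL37+RAPA, Mmp8 remained at 4.10 and Mmp12 was at 2.33, while Mmp10, Mmp1b and Mmp13 were at -1.30, -0.23 and 0.34.

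Over all genes with a window, those with an AP-1 site were called higher in LL37 against LL37+RAPA in 64 of 659 (9.71%), and all genes with a window in 557 of 12460 (4.47%). In LL37 against control the shares were 12.9 and 8.9%, and in LL37+RAPA against control 2.43 and 2.15%. The shares called lower were 5.92 and 5.75% in LL37 against LL37+RAPA and 11.4 and 10.7% in LL37 against control. In LL37+RAPA against control they were 5.77 and 4.44%. These shares are a description and were not tested. Of the 11 genes of AP-1 and ETS factors, which bind MMP promoters, 3 were called higher in LL37 against control, 1 in LL37 against LL37+RAPA and 0 in LL37+RAPA against control. None was called lower in these 3 comparisons. Fosl1, an AP-1 subunit, was at 11.8 ± 2.03 CPM (SD, n = 3) in control, 10.5 ± 1.64 in control+RAPA, 31.1 ± 4.87 in LL37 and 13.7 ± 2.9 in LL37+RAPA. It was higher in LL37 than in control by 1.40 (SE 0.19, adjusted p = 0.000193, edgeR) and than in LL37+RAPA by 1.18 (SE 0.19, adjusted p = 0.00239, edgeR) on the log2 scale. Junb (1.46) and Ets1 (1.01) were the others called against control.

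Other proteases of the matrix were counted from lists. Of the 15 other mouse MMP genes, 10 were tested, and 2 were called higher in LL37 against control, 2 in LL37 against LL37+RAPA and 2 in LL37+RAPA against control. Mmp25, a membrane-anchored MMP of leukocytes, was called in all 3, with log2 fold changes of 3.57, 1.84 and 1.72. Mmp19 rose in LL37+RAPA against control by 2.10 (SE 0.54, adjusted p = 0.0239, edgeR) and stood at 116 ± 57.5 CPM (SD, n = 3) there, against 50.9 ± 12.9 in LL37. Mmp11 was lower in LL37 than in LL37+RAPA by a log2 difference of -1.39. Of 15 ADAM and ADAMTS genes tested of 16, 5 were called higher and 1 lower in LL37 against control, 2 higher and 2 lower in LL37 against LL37+RAPA, and 4 higher in LL37+RAPA against control. Adamts4, an aggrecanase, rose from 4.28 ± 2.1 CPM (SD, n = 3) in control to 124 ± 87 in LL37, a log2 fold change of 4.85 (SE 0.72, adjusted p = 0.000311, edgeR), and was 1.91 above LL37+RAPA. Adam8 (2.54), Adam12 (1.73) and Adamts9 (2.21) also rose in LL37, and Adam12 was at 2.29 in LL37+RAPA against control.

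Of 12 genes that activate MMPs or restrain that step, 9 were tested. Against control, 2 were called higher in LL37 and 2 in LL37+RAPA, among them Plaur, the urokinase receptor. Plaur was at 2.86 in LL37 and 1.95 in LL37+RAPA. Reck, a membrane-anchored inhibitor of MMPs, was called lower in LL37 at -1.34 (SE 0.23, adjusted p = 0.000901, edgeR). None of the 9 was called between LL37 and LL37+RAPA by edgeR. Bsg (0.40, adjusted p = 0.0075), Reck (-0.89, adjusted p = 0.0189) and Serpinb2 (0.94, adjusted p = 0.0358) passed the adjusted p and missed the limit on the fold change. Of 29 matrix genes tested of 30, which include MMP substrates, 4 were called higher and 1 lower in LL37 against control, 2 and 1 in LL37 against LL37+RAPA, and 6 and 0 in LL37+RAPA against control. Against control+RAPA, 13 of the 29 were called higher in LL37+RAPA. Tnc, the matrix glycoprotein of wounds, was at 4.68 in LL37 and 2.67 in LL37+RAPA against control, and Spp1, osteopontin, a substrate of Mmp3, at 4.34 and 3.85. Vcan was at 2.18 and 2.20. Fn1, fibronectin, was at -0.19 in LL37 (adjusted p = 0.725, edgeR) and rose in LL37+RAPA to 1152 ± 660 CPM (SD, n = 3) from 264 ± 106 in control, by 2.13 on the log2 scale (SE 0.42, adjusted p = 0.00526, edgeR).

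Markers of cell types moved with these genes. Neutrophil markers took 0.002 to 0.00838% of counts in control, 0.0025 to 0.00392% in control+RAPA, 0.0275 to 0.261% in LL37 and 0.00974 to 0.0387% in LL37+RAPA. Of 8 neutrophil markers tested of 10, 7 were called higher and 1 lower in LL37 against control, 3 higher in LL37 against LL37+RAPA, and 2 higher in LL37+RAPA against control. The 1 that fell was Mpo, myeloperoxidase, which neutrophils make early in their development, at -1.72 (SE 0.36, adjusted p = 0.00241, edgeR). Among their defining genes, Ly6g had 1 count in control, 0 in control+RAPA, 51 in LL37 and 15 in LL37+RAPA, and Cxcr2 was at 2.88 ± 2.31 CPM (SD, n = 3) in control, 149 ± 99.8 in LL37 and 32.1 ± 20.8 in LL37+RAPA. Mmp8, Mmp9, Mmp25 and Timp1 rose along with them, and LL37 replicate 3, low in neutrophil markers, was the lowest LL37 library for Mmp8, Mmp9 and Timp1, as it also was for Mmp2, Mmp3, Mmp13 and Mmp14. S100a8 and S100a9 held the most counts of the neutrophil list in LL37 (20983 and 33998), so the share leans on them. Between LL37 and LL37+RAPA, the mean share went from 0.157 to 0.0286%. Of the 8 markers tested, 7 had log2 differences above 0 there and 1 below. The fall was not equal among them, as Csf3r was at 226 ± 149 CPM (SD, n = 3) in LL37 and 102 ± 57 in LL37+RAPA. Mmp25 (1.84) and Timp1 (1.42) were called higher in LL37 in that comparison, while Mmp8 (0.40) and Mmp9 (0.01) were not called. The part of neutrophils in these levels was not tested. Keratinocyte markers took 1.94 to 2.74% in control, 1.95 to 2.43% in control+RAPA, 3.6 to 4.56% in LL37 and 2.5 to 2.54% in LL37+RAPA, with 5 of 8 called higher in LL37 against control, 3 of 8 in LL37 against LL37+RAPA and 0 in LL37+RAPA against control. Mmp3, Mmp10 and Mmp13 had their highest mean in LL37, and so did Mmp8, Mmp9, Mmp14 and Timp1. In LL37 replicates 1 to 3, keratinocyte markers took 4.4, 3.6 and 4.56%. Mmp3 was at 187, 332 and 92.7 CPM there, Mmp13 at 30.1, 65.4 and 19.9 and Mmp10 at 3.32, 4.23 and 6.22. The part of keratinocytes in these levels was not tested.

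**Figure D5:**
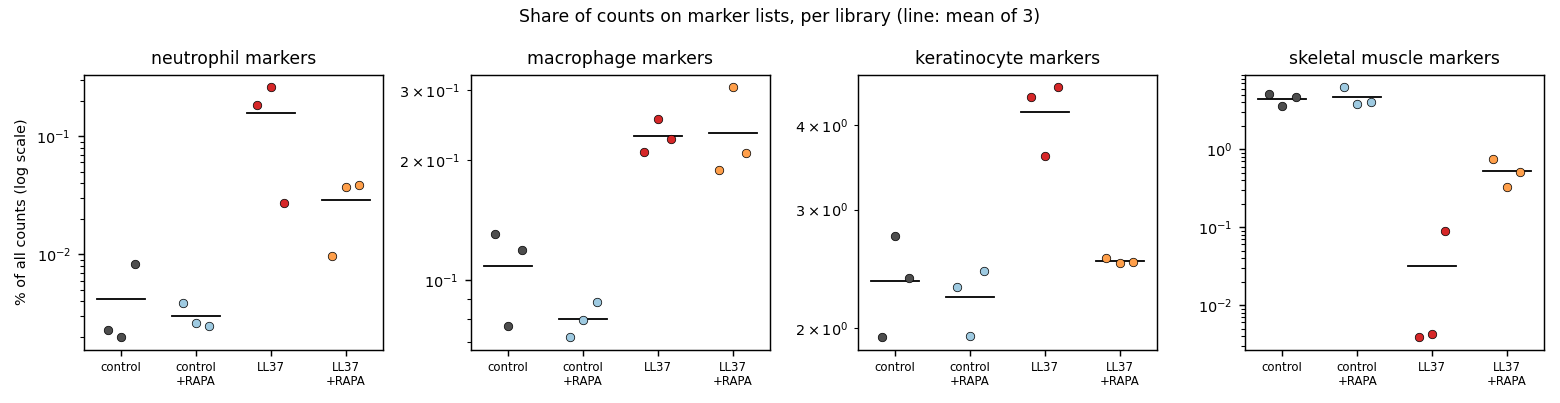
Share of all counts (percent, log scale) on neutrophil, macrophage, keratinocyte and skeletal muscle markers in each library, with a bar at the mean of 3. LL37 replicate 3 is the low point of its group for neutrophil markers (0.0275%) and the high point for muscle markers (0.0881%).

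Macrophage markers took 0.0767 to 0.131% of counts in control, 0.0721 to 0.088% in control+RAPA, 0.21 to 0.253% in LL37 and 0.189 to 0.305% in LL37+RAPA, and 4 of 10 were called higher in LL37 against control, 2 in LL37 against LL37+RAPA (6 passed the adjusted p) and 2 in LL37+RAPA against control. Lyz2 held the most counts of this list in LL37 (40698) and LL37+RAPA (85287), so the share leans on it. The other 9 of the 10 had log2 differences above 0 in LL37 against LL37+RAPA. Fibroblast markers, from cells that make much of the skin's Mmp2 and Mmp14, took 0.111 to 0.171, 0.0974 to 0.123, 0.117 to 0.157 and 0.12 to 0.163% in control, control+RAPA, LL37 and LL37+RAPA. Of 8 fibroblast markers, 1 was called higher and 2 lower in LL37 against control and 0 between LL37 and LL37+RAPA. Adipocyte markers were lower in LL37, as were Timp3 and Timp4. They took 0.0882 to 0.154% in control, 0.093 to 0.255% in control+RAPA, 0.0304 to 0.0601% in LL37 and 0.2 to 0.233% in LL37+RAPA. Of the 6, 5 were called lower in LL37 against control and 6 of 6 against LL37+RAPA. The part of adipocytes in the levels of Timp3 and Timp4 was not tested. Endothelial markers had 2 of 5 called lower in both comparisons, mast cell markers 0 of 5, and T cell markers 1 and 2 of 5 called higher. All 19 muscle markers tested of 20 were called lower in both. When the muscle markers were left out of the table, the log2 fold changes of the 10 genes moved by no more than 0.02 in either comparison. With 3 against 3 libraries, the exact permutation test of a marker share cannot give a two-sided p below 0.1. It gave 0.1 for neutrophil, macrophage, keratinocyte, adipocyte, muscle and T cell markers in LL37 against control, and 0.3 for neutrophil markers in LL37 against LL37+RAPA.

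The genes with the most similar pattern were found by Pearson correlation of log2 CPM over the 12 libraries, which share group means and so are no independent points. Among the closest to Timp1 were Csf3r and Gmfg (r = 0.99 for each), and Mmp8 was closest to Csf3r, Txndc12 and Klra17 (0.98 for each). Mmp3 was closest to Tlr1, Mefv and Akr1b8 (0.99, 0.99 and 0.98), and Mmp13 to Gsdmc2, Sprr2e and Il1b (0.97, 0.97 and 0.95). Among the closest to Mmp10 were Egln3 and Sat1 (0.96 and 0.95), with Spearman's rho of 0.66 and 0.68. For Timp3 they were Agt, Csad and Adamts18 (0.98 for each). Mmp9 was closest to Angpt2, Rufy4 and Nek6 (0.96, 0.95 and 0.95), Mmp14 to Ipo9, Selp and Prr16 (0.96 for each) and Mmp2 to Tgfbr2, Gnb5 and Gm29609 (0.91, 0.86 and 0.85). Mmp12 had no neighbour above 0.89, the value of Slc12a4. Among the 10 genes themselves, Timp1 was closest to Mmp3 and Mmp8 (0.96 for both). Timp3 went opposite to Mmp10, Mmp3 and Mmp13 (r = -0.87, -0.81 and -0.80, with rho of -0.64, -0.57 and -0.71). Mmp12 and Mmp10 also went opposite ways (r = -0.69, rho = -0.83). Mmp10 held at most 9 counts in any library outside LL37, so its ranks among those rest on few counts.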

How the data were processed

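RNA of whole mouse skin was sequenced in 12 libraries, 3 per group. The authors deposited raw read counts per gene and library, without normalization or pooling. The study's methods name HTSeq for counting, while the submitters' processing notes list HISAT2 2.0.5, StringTie 1.3.3b, featureCounts 1.5.0-p3, DESeq2 1.16.1 and mm10, so which counter made the deposited counts, and whether it used strand, is not given in the sources used here. All columns were mapped to samples by their labels.

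Gene names and positions came from GENCODE M21 (GRCm38), which matched 52403 of 52636 identifiers. All 12 libraries were fitted together in R 4.3.3 with edgeR 4.0.16 (TMM, filterByExpr by group, quasi-likelihood F-test, Benjamini-Hochberg adjustment over 17993 genes). A call needed a log2 fold change past 1 in size at an adjusted p under 0.05. The fit was tested on simulated data with 200 changed genes. Means are given with SD over 3 libraries. Log2 CPM for correlations used a prior count of 2. Intervals and the limit of 3 counts cover counting error only.

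All 10 genes are described in all comparisons. From each other list (other MMPs, other TIMPs, ADAM and ADAMTS genes, MMP activation, matrix, AP-1 and ETS factors, and 9 lists of cell type markers), up to 4 called genes with the largest fold change in size could be named from the 3 main comparisons, and defining markers besides. For each of the 10, the 3 genes with the highest correlation could be named too. Some genes that these rules pick are not reported here. The genes and lists were chosen with earlier results of these data known. Alternatives were DESeq2 size factors, library size only, removal of the muscle markers, filters of 1 count in total and of 10 counts in every library, DESeq2 1.42.0, no limit on the fold change, only the groups compared, a block for the replicate number, and fits without 1 library at a time.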

Additional observations from a re-analysis of the deposited data

Results flagged for a closer look

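The effect of RAPA on Mmp10 differed between LL37-injected and control skin, by a test of the difference itself. The interaction of LL37 and RAPA was -5.10 on the log2 scale (SE 0.77, adjusted p = 0.0193, edgeR's quasi-likelihood test). Mmp10 held 61, 69 and 132 counts in the LL37 libraries, 2, 3 and 2 in LL37+RAPA and at most 9 in any control library, so the value leans on groups near the limit of counting. It passed the filter on low counts only through the LL37 libraries. Its few counts in skin without LL37 could hardly show a fall with RAPA there, so the interaction is no support beyond the rise in LL37 and its absence in LL37+RAPA. Leaving out each library in turn gave -5.80 to -4.73, and the call was lost without LL37+RAPA replicate 1 or control+RAPA replicate 3. Groups held 3 libraries each, too few to test single libraries as outliers.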

How the results depend on the processing

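The 7 calls in LL37 vs control, the calls of Mmp10, Mmp12 and Timp3 in LL37 vs LL37+RAPA and those of Mmp8, Mmp9 and Timp1 in LL37+RAPA vs control kept their direction and side of the threshold under every alternative in which the gene was tested with all libraries. Leaving out single libraries ended only that of Mmp13 among them. A filter of 10 counts in every library left out Mmp8, Mmp10 and Mmp13, so 4 genes were called in LL37 vs control and 0 in the interaction. The interaction had 2 calls with a filter of 1 count in total and 2 with DESeq2, Timp3 being the added one. Only the groups compared ended the call of Mmp3 in LL37 vs LL37+RAPA (1.76), and library size only and only the groups compared ended that of Timp1. DESeq2, library size only, a filter of 1 count and only the groups compared added Mmp3 in LL37+RAPA vs control (1.33 to 1.46). With library size only, the median log2 fold change of all genes was 0.13 in LL37+RAPA vs control (0.00 with TMM), 0.18 in LL37+RAPA vs control+RAPA (-0.01 with TMM) and 0.11 in the interaction (0.01 with TMM). The causes were not tested.

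Leaving out each library in turn, the number of genes called ranged from 6 to 7 in LL37 vs control, 3 to 6 in LL37 vs LL37+RAPA (3 without LL37+RAPA replicate 1), 3 to 5 in LL37+RAPA vs control and in LL37+RAPA vs control+RAPA, 0 to 0 in control+RAPA vs control and 0 to 2 in the interaction (0 without LL37+RAPA replicate 1 or control+RAPA replicate 3). Over all genes, the interaction had 429 calls, 1012 with DESeq2, 822 with a filter of 1 count in total, 199 with the replicate block, 2 after leaving out LL37+RAPA replicate 1 and 1760 after leaving out LL37 replicate 3. Control+RAPA vs control had 0 calls over all genes, 8 with a filter of 1 count and 51 with DESeq2. With no limit on the fold change, LL37 vs control had 7668 calls over all genes, against 3516, and LL37 vs LL37+RAPA had 4359, against 1823.

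Fold changes near 0 changed sign. For Mmp9 in LL37 vs LL37+RAPA the value was -0.04 with library size only, -0.02 and -0.01 with filters of 1 and 10 counts, -0.01 with only the groups compared and -0.79 to 0.43 with libraries left out. With library size only, Mmp2 was at 0.06 in LL37+RAPA vs control and 0.12 in LL37+RAPA vs control+RAPA, and Timp3 at 0.09 in the latter. With libraries left out, Mmp2 ran from -0.31 to 0.16 in LL37 vs control, -0.16 to 0.05 in LL37 vs LL37+RAPA, -0.23 to 0.24 in LL37+RAPA vs control, -0.18 to 0.29 in control+RAPA vs control, -0.19 to 0.09 in LL37+RAPA vs control+RAPA and -0.20 to 0.27 in the interaction. Mmp8 ran from -0.05 to 0.89 and Mmp14 from -0.02 to 0.30 in LL37 vs LL37+RAPA. Mmp13 ran from -0.22 to 2.80 in LL37+RAPA vs control (2.80 without control replicate 3), -1.69 to 2.31 in control+RAPA vs control and -0.04 to 2.02 in LL37+RAPA vs control+RAPA. In control+RAPA vs control, Mmp10 ran from -0.66 to 0.41, Mmp14 from -0.27 to 0.10 and Timp3 from -0.07 to 0.35. Timp3 ran from -0.22 to 0.21 in LL37+RAPA vs control+RAPA. In the interaction, Mmp9 ran from -0.97 to 0.25, Mmp14 from -0.22 to 0.15 and Timp1 from -0.83 to 0.11.

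For marker shares, differences of means in percentage points with libraries left out ran from -0.0271 to 0.0307 (macrophage, LL37 vs LL37+RAPA), -0.00889 to 0.0219, -0.0113 to 0.0141 and -0.0118 to 0.022 (fibroblast, for LL37 less control, LL37 less LL37+RAPA and LL37+RAPA less control), -0.044 to 0.356 (keratinocyte, LL37+RAPA vs control) and -0.00432 to 0.00328 (mast cell, LL37 vs control). As shares of a total without muscle markers, the fibroblast differences were -0.00385 in LL37 vs control and -0.00314 in LL37+RAPA vs control.

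Replicate numbers gave no sign of pairing: of 18 same-numbered pairs across groups, 4 had a correlation of deviations over 0.1 (range -0.19 to 0.26). Pairs with different numbers ran from -0.3 to 0.28. With 3 libraries per group, this check cannot show that pairing is absent. With the replicate number as a block, 7 genes were called in LL37 vs control, 4 in LL37 vs LL37+RAPA, 3 in LL37+RAPA vs control, 0 in control+RAPA vs control, 4 in LL37+RAPA vs control+RAPA and 1 in the interaction. The block ended the calls of Mmp13 (3.37, adjusted p = 0.0647, edgeR) and Timp1 (1.37, adjusted p = 0.0917, edgeR) in LL37 vs LL37+RAPA and of Mmp12 in LL37+RAPA vs control (2.28, adjusted p = 0.0606, edgeR), and turned Mmp9 in LL37 vs LL37+RAPA to -0.04 and Mmp13 in control+RAPA vs control to 0.22. It changed no other call. At this depth, levels of Mmp10 in LL37+RAPA cannot be told from 3 counts or fewer.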
